A study of Mus musculus with 14 samples.

Results

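The glutamate receptor subunits and glutamate transporters of the mouse spinal cord were examined as a group of 28 genes named by symbol: the AMPA receptor subunits Gria1 to Gria4, the kainate receptor subunits Grik1 to Grik5, 7 NMDA receptor subunits, the delta receptor Grid1, 7 metabotropic receptors and 4 transporters. Of these, 27 had a row among the 19215 genes of the whole spinal cord (WSC) RNA-seq tables. Grm2 was not analysed here. By their gene identifier, 10 of the genes held 16 of the 13189 cassette exons in the same tables, a cassette exon being an internal exon that is either included or skipped.

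The WSC RNA-seq consisted of 2 libraries, from 1 male and 1 female mouse 12 weeks old. Both mice carried the transgene Tg(SOD1)2Gur/J, a human wild-type SOD1, on a B6/SJL background. NOVA binding came from 12 HITS-CLIP libraries, in which NOVA proteins are crosslinked to RNA by UV light, immunoprecipitated, and the RNA fragments under them sequenced as tags. These were made from C57BL/6 mice 3 months old. Of the 12, 4 came from Chat:GFP-Nova #6 and 4 from Chat:GFP-Nova #17, both hemizygous BAC transgenic lines in which the Chat promoter drives GFP-NOVA2 in motoneurons, and each from pooled spinal cords. The other 4 came from wild-type WSC. GFP antibodies precipitated the transgenic protein in the first 2 groups, and a human anti-NOVA serum precipitated endogenous NOVA1 and NOVA2 in WSC, so cell type, NOVA protein, expression from a transgene, antibody and pooling cannot be told apart in a comparison of Chat:GFP-Nova with WSC. Likewise, fewer cells that express a gene and less RNA per cell cannot be told apart in these bulk libraries.

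Glutamate is the main fast excitatory transmitter of the spinal cord. It is loaded into vesicles by the vesicular transporters (VGLUTs). Its receptors are channels of the AMPA, kainate and NMDA classes, each a complex of several subunits, and metabotropic receptors that signal through G proteins. NOVA1 and NOVA2 are neuronal RNA-binding proteins that recognise the tetramer TCAT or TCAC, or CCAT or CCAC, and regulate splicing and 3′ end processing.

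RNA-seq depth was 72006019 reads on genes in the male and 65625173 in the female library. CLIP depth was 65961 to 871804 tags in the Chat:GFP-Nova libraries and 2213104 to 6095995 in WSC. Exonic tags made up 33.5% to 46.5% of the tags on genes in Chat:GFP-Nova and 61.0% to 66.3% in WSC. Comparisons were therefore also made with intronic tags alone where a gene had enough of them. By the read names, the 4 WSC libraries and 4 Chat:GFP-Nova libraries (replicates 3 and 4 of each line) shared a flow cell, whereas the other 4 Chat:GFP-Nova libraries did not. Of the motoneuron markers, Chat and Slc5a7 had more tags in Chat:GFP-Nova than in WSC, by 3.09 and 2.24 on the log2 scale. The BAC transgene itself carries Chat promoter sequence, and its part in the Chat tags was not tested. Isl1, Mnx1 and Prph had too few tags to test. Tags are given as CPM, counts scaled to equal library totals. The 4 markers of inhibitory interneurons (Slc32a1, Slc6a5, Gad1 and Gad2) had fewer, by log2 differences of -4.20, -4.27, -2.91 and -2.05, and their summed CPM was 104 to 557 in Chat:GFP-Nova and 2630 to 2909 in WSC. Gfap, Aqp4 and Gja1, markers of astrocytes, also had fewer, with log2 differences of -0.75, -0.71 and -1.29 and, with Aldh1l1, a summed CPM of 89.2 to 388 against 446 to 589. With exonic tags alone these 3 did not pass (Gfap -0.04, FDR = 0.875, Aqp4 0.0044, FDR = 0.983, and Gja1 -0.51, FDR = 0.0640), whereas the 4 inhibitory markers did. In the oligodendrocyte list Mobp had fewer (-0.60, but -0.18 and FDR = 0.446 with exonic tags), whereas Mbp (-0.10) did not pass the test.

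For each gene the position of greatest NOVA tag depth was found. It held a part of the WSC tags, 435 of 18902 for Grm7 and 1408 of 11572 for Slc17a6. The 30 bases around the position of greatest WSC tag depth are given below for 7 genes that differed between Chat:GFP-Nova and WSC, on the coding strand of mm9, with these tetramers in capitals. The first 3 genes had fewer tags in Chat:GFP-Nova and the last 4 had more. Of the genes that differed but are not printed, Gria3, Gria4 and Grin2d had more tags and this position in the 3′ UTR. Grin2a and Grin2b had more tags and the position in a coding exon. Slc1a1 and Grm4 had fewer tags, with the position in the 3′ UTR and in a coding exon.
Slc17a6, 3′ UTR, chr7:58925417-58925446 (+): ccCCATTCACtacctgacagtatcaaaccc
Grm5, 3′ UTR, chr7:95280129-95280158 (+): ctcttTCACCATgttgccaatcaatactgg
Grik3, 3′ UTR, chr4:125388160-125388189 (+): ctccgttcTCATccgctgtagtctttaacc
Grm7, intron, chr6:110679253-110679282 (+): aTCATCATCATCATtctggtttacattgat
Grik4, intron, chr9:42495742-42495771 (-): atTCATTCATTCATTCATTCACatactgga
Grid1, intron, chr14:35937369-35937398 (+): cacCCATacTCACctgtcttgaagtcagtc
Grik2, intron, chr10:48986643-48986672 (-): tctattCCATtctgttctgttaagttctgt

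At these positions the summed depth in WSC and in Chat:GFP-Nova was 1408 and 6 tags for Slc17a6, 349 and 2 for Grm5, 91 and 3 for Grik3, 435 and 64 for Grm7, 251 and 46 for Grik4, 387 and 52 for Grid1, and 156 and 29 for Grik2. Scaled to the tags on genes, the Slc17a6 position had a CPM of 99.8 in WSC and 3.86 in Chat:GFP-Nova. The Grid1 position had 27.4 and 33.5. Among the genes with more tags in Chat:GFP-Nova, this position was likewise higher there for Grm7, Grik4 and Grik2. It was lower for Gria3, Gria4, Grin2a, Grin2b and Grin2d. In WSC and Chat:GFP-Nova, Gria3 had 24.9 and 10.3, Gria4 55.0 and 18.7, and Grin2a 18.8 and 1.93. Grin2b had 20.6 and 7.72, and Grin2d 17.3 and 6.44. The positions were chosen for their depth in WSC, which favours WSC in these values, so they were not tested. Of the members, 22 had a position with at least 20 WSC tags, and all 22 of those 30-base windows held at least 1 of the tetramers. The same was true of 89.8% of the 7870 such windows over all genes, on the transcribed strand only. The deepest WSC position of any member lay in the 3′ UTR of Grin3a, which encodes the NMDA receptor subunit GluN3A, with 1549 tags in WSC and 74 in Chat:GFP-Nova, and the next in Slc17a6 and in the 3′ UTR of the AMPA receptor gene Gria4 (776 and 29 tags).

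The RNA-seq gave the level of each gene in the cord as a whole. RPKM is the read number per kilobase of exon, scaled to equal library totals, so levels can be compared between genes as far as the exon lengths of the table hold. For 4 members (Grin3a, Grid1, Grik4 and Grik2) the annotation has over 1.5 times the exon length of the table. For Gria2 and Grik1 it has 0.66 and 0.51 times that length. Of the 27 genes, 25 had a mean RPKM of at least 1, a level that 62.1% of all genes reached, and 14 had at least 10. Their median mean RPKM was 10.9, against 3.46 over all genes.

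**Figure D1:**
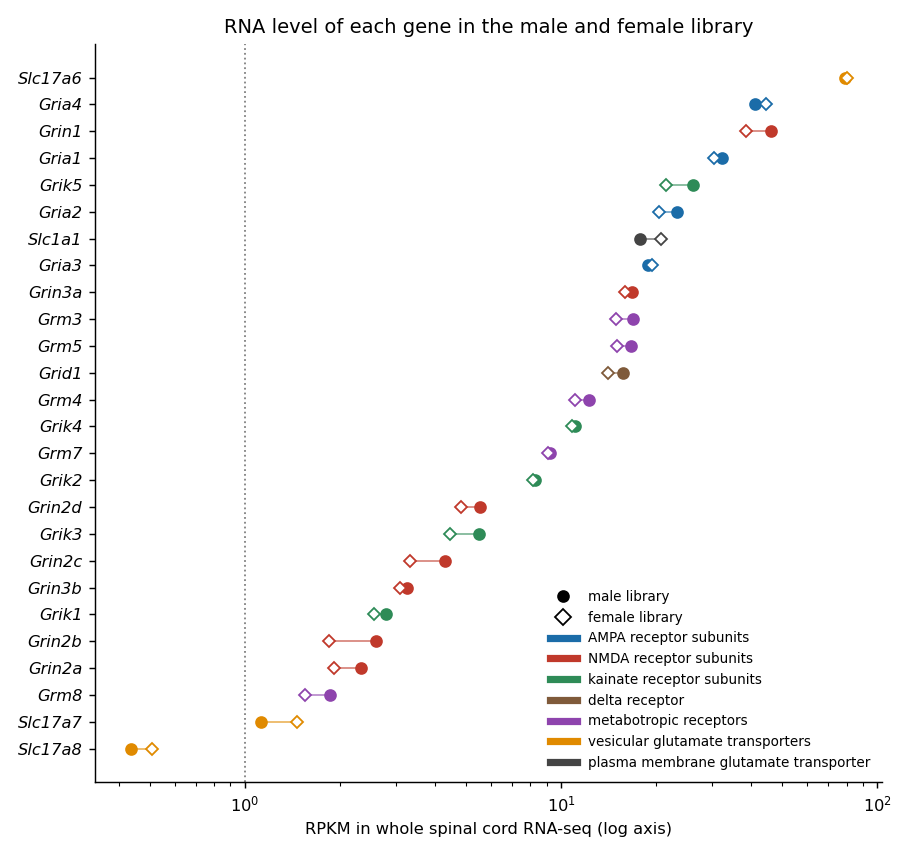
RPKM (log axis) of each member in the WSC RNA-seq, with circles for the male and diamonds for the female library and colours for the receptor or transporter class. Levels ran from 79.5 for Slc17a6 to 0.47 for Slc17a8, the dotted line marks 1 RPKM, and Grm6, with no read in either library, is not drawn.

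Among the transporters, 1 vesicular gene held nearly all of the signal. Slc17a6 (VGLUT2), the transporter of most spinal excitatory interneurons, had the highest level of the group, at 79.0 RPKM in the male and 79.98 in the female library. Slc17a7 (VGLUT1), which marks the terminals of sensory and corticospinal axons whose cell bodies lie outside the cord, had 1.13 and 1.46, and Slc17a8 (VGLUT3) had 0.44 and 0.51. Slc17a6 thus made up 97.8% ± 0.33 (SD, n = 2) of the summed RPKM of the vesicular transporters. Slc1a1 (EAAC1), the neuronal plasma membrane transporter, had 17.8 and 20.6 RPKM.

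The AMPA receptor subunits, which carry most fast excitatory current, were the most abundant channel class, with a summed RPKM of 115.05 ± 0.63 (SD, n = 2). Gria4 (GluA4) led with 41.1 in the male and 44.4 in the female library. It was followed by Gria1 (GluA1) with 32.3 and 30.5. Gria2 encodes GluA2, the subunit whose edited form keeps calcium out of the channel, and it followed with 23.3 and 20.3, ahead of Gria3 (GluA3) with 18.8 and 19.4. Gria2 therefore made up 18.9% ± 1.7 (SD, n = 2) of AMPA receptor subunit RPKM and Gria4 37.2% ± 2.2. The RPKM of Gria2 rests on an exon length of 10476 nt where the annotation has 6956 nt. Its share, its place in the order and the class sum are therefore uncertain. The levels of Gria4, Gria1 and Gria2 did not overlap between libraries, and neither did those of Gria2 and Gria3.

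The NMDA receptor subunits summed to 75.3 ± 8.1 RPKM (SD, n = 2). Grin1 encodes GluN1, which every NMDA receptor contains, and had 46.2 RPKM in the male and 38.6 in the female mouse, or 56.2% ± 1.1 of the class. The GluN2 subunits were each below 6. Grin2d (GluN2D) had 5.53 and 4.83, Grin2c (GluN2C) 4.29 and 3.33, Grin2b (GluN2B) 2.60 and 1.85, and Grin2a (GluN2A) 2.33 and 1.91. Grin3b (GluN3B), known for its expression in motoneurons, had 3.25 and 3.09. Grin3a had 16.8 and 16.0, but the deposited table gave it an exon length of 1601 nt where the GENCODE annotation has 15779 nt of exon, a ratio of 9.86, so its level rests on a part of the gene and its place in the order is uncertain. The class sum and the shares of the other NMDA receptor genes include its 21.9%.

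**Figure D2:**
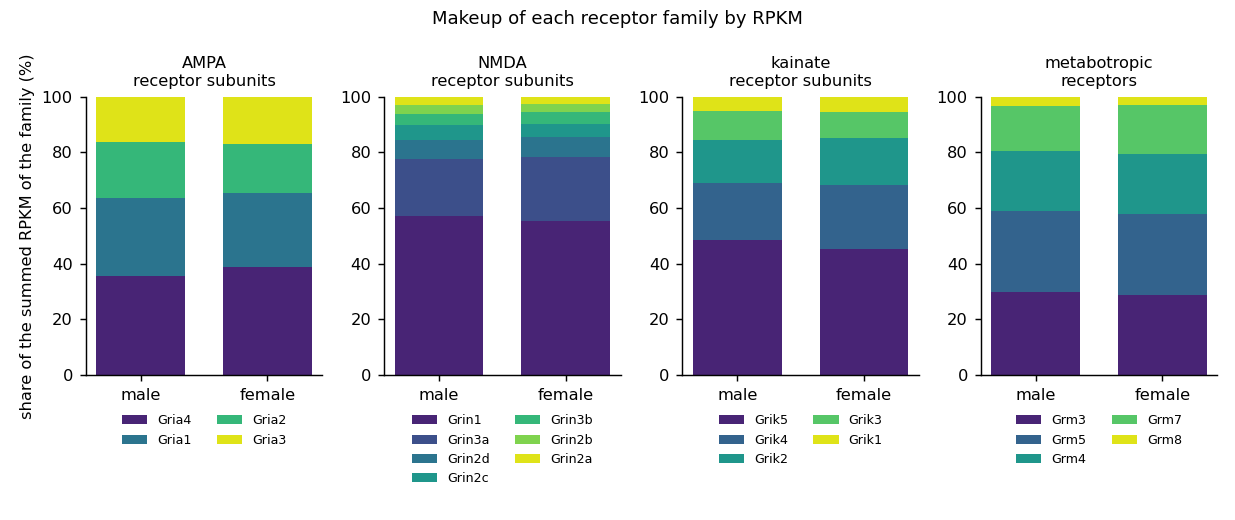
Share of the summed RPKM of each receptor family taken by each of its genes, in the male and the female WSC library. Gria4, Grin1 and Grik5 were the most abundant of their families in both libraries, and Grm3 and Grm5 each held about the same share of the metabotropic receptors.

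Among the kainate receptor subunits, which modulate transmission on both sides of the synapse, Grik5 (GluK5) had 26.1 and 21.5 RPKM and made up 46.9% ± 2.3 (SD, n = 2) of the class. Grik4 (GluK4) followed with 11.1 and 10.8, Grik2 (GluK2) with 8.29 and 8.14, Grik3 (GluK3) with 5.50 and 4.44, and Grik1 (GluK1) with 2.80 and 2.56. The high-affinity subunits GluK4 and GluK5 need a GluK1, GluK2 or GluK3 partner to form a channel. Grid1 (GluD1), which binds cerebellins and organises synapses, had 15.7 and 14.0 RPKM.

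Of the metabotropic receptors, Grm3 (mGlu3, a receptor also found on astrocytes) had 16.9 and 14.9 RPKM, and Grm5 (mGlu5) had 16.7 and 14.99. Grm4 had 12.2 and 11.1, Grm7 9.25 and 9.09, and Grm8 1.86 and 1.55, all of them group III receptors that are known mainly from presynaptic terminals. Grm6, the receptor of retinal ON bipolar cells, had 0 reads in either library. Over all members in order of mean RPKM, the ranges of neighbouring genes overlapped in 10 of 26 pairs, among them Grik5 with Gria2, and Grm3 with Grm5.

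Between the 2 libraries there is no replicate, and sex and animal cannot be told apart. No member differed by more than 1.5-fold on the log2(RPKM + 0.1) scale, past which 4.79% of all genes were higher in the male and 3.66% in the female mouse. At 1 RPKM or more these shares were 2.11% and 1.38%. Of the 25 members with at least 1 RPKM, 20 were higher in the male library, with a median log2 ratio of 0.14, whereas 51.3% of all genes at that level were higher, with a median of 0.01. Grin2b had the highest ratio, 0.47, and Slc17a7 the lowest, -0.35.

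NOVA CLIP tags were then compared between Chat:GFP-Nova and WSC. Tag numbers also depend on the amount of each transcript, and no motoneuron RNA-seq was used, so binding and RNA level cannot be told apart. Of the 27 genes, 22 had enough tags to test. At an FDR of 0.01, 9 had more tags in Chat:GFP-Nova and 5 had fewer, where 28.1% and 28.9% of the 4467 genes tested did so over all. The median log2 difference of the 22 was 0.06, and that of all genes -0.01. By role, 3 of 5 tested NMDA receptor genes, 2 of 4 AMPA receptor genes, 2 of 5 kainate receptor genes, 1 of 5 metabotropic receptor genes and Grid1 had more tags. Those with fewer were 1 kainate and 2 metabotropic receptor genes and both transporters tested.

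**Figure D3:**
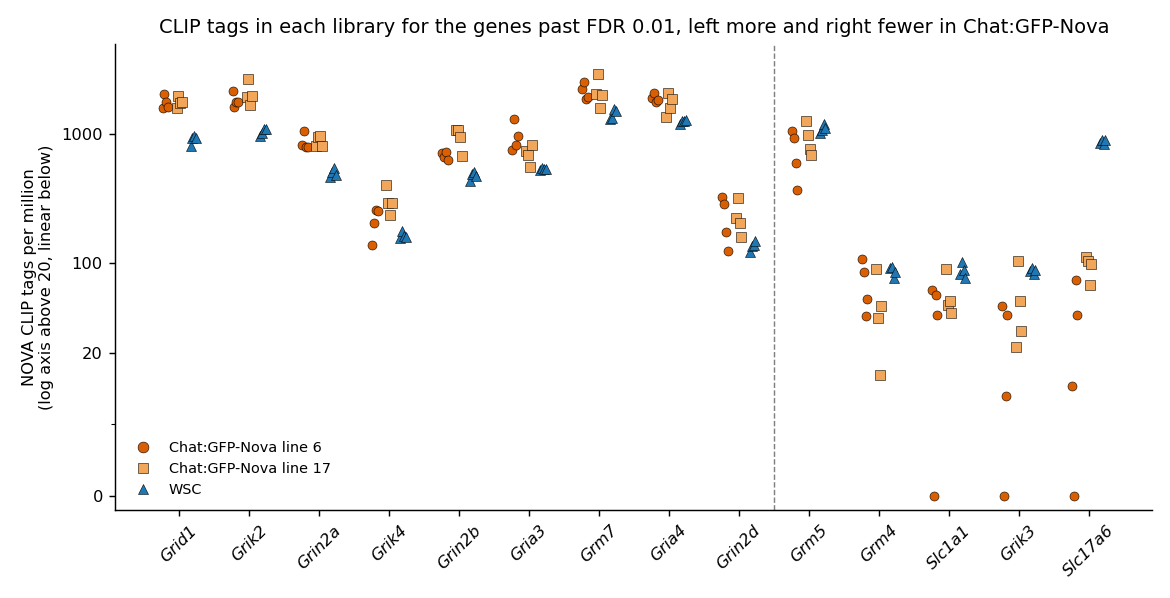
CPM of NOVA CLIP tags in each of the 12 libraries (log axis above 20, linear below) for the 14 members past an FDR of 0.01. Genes left of the dashed line had more tags in Chat:GFP-Nova and those to its right fewer, and Slc17a6 had the widest gap between the groups.

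The transporter Slc17a6 had the lowest ratio of all members. Its CPM was 857, 900, 838 and 903 in the 4 WSC libraries. In the 8 Chat:GFP-Nova libraries it was 0 at the lowest, 70.3 at the median and 111 at the highest. Every Chat:GFP-Nova library was thus below every WSC library, which held for 15.8% of all genes tested. The log2 difference was -3.52 ± 0.16 (SE, FDR = 3.05e-16, edgeR), an 11.5-fold lower tag number, and with exonic tags alone it was -2.92 (FDR = 7.57e-13). It ran in the same direction as the 4 inhibitory interneuron markers above, and the part of other cells in it was not tested. Slc1a1 also had fewer tags, with a CPM of 82.3, 101.9, 88.2 and 76.4 in WSC, and of 0, 48.6 and 89.2 at the lowest, median and highest in Chat:GFP-Nova (log2 difference -0.96 ± 0.20, SE, FDR = 0.000159). Here the groups overlapped. Of the Slc1a1 tags, 49.2% were exonic in Chat:GFP-Nova and 79.7% in WSC, and the gene was not tested with intronic or exonic tags alone over all libraries. Within the shared flow cell its intronic difference was -0.51 (FDR = 0.239). Slc17a7 and Slc17a8 had 27 and 23 tags over the 12 libraries, too few to test.

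Grik3 was the receptor gene with the lowest ratio. Its CPM was 85.4, 90.9, 81.1 and 87.4 in WSC. In Chat:GFP-Nova it was 0, 34.3 and 103 at the lowest, median and highest, so that 1 library, replicate 2 of line 17, lay above WSC. The log2 difference was -1.36 ± 0.24 (SE, FDR = 1.96e-05), and with intronic tags alone -1.48 ± 0.25 (FDR = 9.69e-06). Grm5, which signals through Gq, had a CPM of 1023, 1068, 1190 and 1121 in WSC, and 370, 844 and 1271 at the lowest, median and highest in Chat:GFP-Nova (log2 difference -0.54 ± 0.16, SE, FDR = 0.00384). This difference passed the test with intronic tags (-1.11 ± 0.13, FDR = 1.31e-08) and with exonic tags (-2.91 ± 0.26, FDR = 5.07e-10), both of them further from 0 than with all tags. Of the Grm5 tags, 2.66% were exonic in Chat:GFP-Nova and 21.9% in WSC. The call for all Grm5 tags was lost without line 6 replicate 3 (FDR = 0.0196) or 4 (0.0117), line 17 replicate 4 (0.0184), or WSC replicate 3 (0.0160) or 4 (0.0117), by DESeq2 (0.0743), and with line 17 alone (0.0335). Grm4 had fewer tags (log2 difference -0.80 ± 0.19, SE, FDR = 0.00073), a call lost without line 17 replicate 4 (FDR = 0.0115) and with line 6 alone (0.0486), and not made with exonic tags (-0.16, FDR = 0.551). Without line 17 replicate 4, 3 members rather than 5 had fewer tags.

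The 9 genes with more tags were led by Grid1. Its CPM was 807, 934, 960 and 930 in WSC, and 1584, 1757 and 2061 at the lowest, median and highest in Chat:GFP-Nova, with no overlap (log2 difference 0.96 ± 0.10, SE, FDR = 3.76e-09). Every Chat:GFP-Nova library lay above every WSC library for 13.0% of all genes. Grik2 had 957, 1016, 1088 and 1101 in WSC, and 1622, 1863 and 2656 in Chat:GFP-Nova (0.91 ± 0.11, SE, FDR = 9.57e-08). For Grin2a the WSC values were 463, 508, 546 and 478, and the Chat:GFP-Nova values 787, 812 and 1047 (0.77 ± 0.09, SE, FDR = 6.09e-08). Neither gene's groups overlapped. Gria3, Gria4, Grin2b and Grm7 likewise had every Chat:GFP-Nova library above WSC, with log2 differences of 0.63, 0.55, 0.70 and 0.58. Grm7 had the most tags of all members, 2864 in Chat:GFP-Nova and 18902 in WSC, over a gene of 921650 bp. It encodes mGlu7, a presynaptic receptor of low glutamate affinity. Grik4 (0.70) and Grin2d (0.52) had overlapping groups, and the call for Grin2d was lost without line 17 replicate 2 (FDR = 0.0121) or WSC replicate 1 (0.0147), within the shared flow cell (0.0975), and with line 6 (0.0200) or line 17 alone (0.0123). Without a filter on low counts Grm7 (0.32, FDR = 0.0217), Gria4 (0.29, FDR = 0.0370) and Grin2d (0.31, FDR = 0.0875) did not pass, so that 6 members had more and 7 had fewer.

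None of these 9 genes passed an FDR of 0.01 with intronic tags alone, where 12.1% of 2648 genes had more and 14.8% had fewer. Their intronic log2 differences lay between -0.25 for Grm7 and 0.34 for Gria3, the latter at an FDR of 0.0111. Gria3 passed within the shared flow cell (FDR = 0.00756) and without line 6 replicate 3 (0.00821), line 17 replicate 1 (0.00702), 2 (0.00173) or 3 (0.00645), or WSC replicate 1 (0.00827). Grm7 had fewer within the shared flow cell (-0.38, FDR = 0.000453) and without line 17 replicate 2 (0.00878). Grid1 was at 0.15, Grik2 at 0.06 and Grin2a at 0.01. The exonic share of tags differed between the groups, as given above. For Grik2 it was 1.38% in Chat:GFP-Nova and 3.13% in WSC, so both fits used nearly the same tags of this gene and differed in the library totals to which they were scaled. For Gria3 (21.5% and 46.5%), Gria4 (14.8% and 30.1%) and Grin2b (9.91% and 31.1%) the fits also differed in the tags used, and the parts of tag choice and scaling were not tested. For Grin2d, of whose tags 47.5% and 60.5% were exonic, the exonic difference of 0.92 ± 0.20 (SE, FDR = 0.000307) passed the test.

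**Figure D4:**
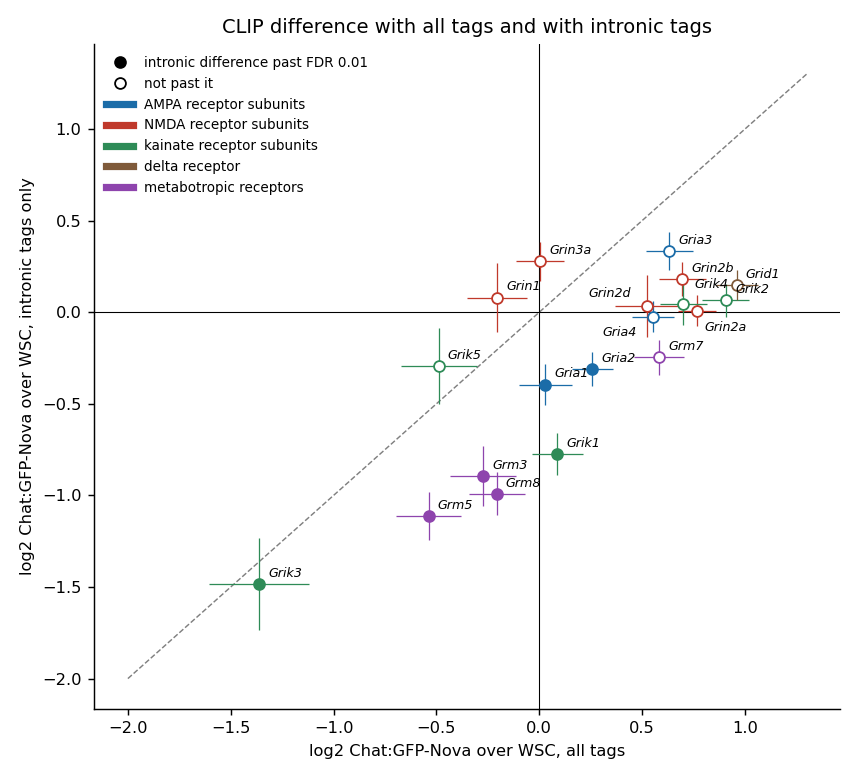
Log2 difference of NOVA CLIP tags between Chat:GFP-Nova and WSC with all tags (x axis) and with intronic tags alone (y axis) for the 19 members tested both ways, with bars for 1 SE and the dashed line for equal values. Filled points passed an FDR of 0.01 with intronic tags: all 7 lie below 0, and the 9 genes with more tags in total lie between -0.25 and 0.34 on the y axis.

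Over the 2648 genes tested with intronic tags, 14.8% had fewer in Chat:GFP-Nova and 12.1% had more. Among the members, 7 of 19 had fewer and none had more. Besides Grik3 and Grm5, these were Grm8 (-0.99 ± 0.12, SE, FDR = 1.48e-08), Grm3 (-0.89 ± 0.16, FDR = 3.32e-05), Grik1 (-0.78 ± 0.12, FDR = 1.08e-06), Gria1 (-0.39 ± 0.11, FDR = 0.00528) and Gria2 (-0.31 ± 0.09, FDR = 0.0071). The metabotropic receptor genes thus had 3 of 4 tested members on this list, the kainate receptor genes 2 of 5, the AMPA receptor genes 2 of 4, and the NMDA receptor genes 0 of 5. None of the 5 NMDA receptor genes passed FDR 0.01 in either direction with intronic tags. The calls for Grm5, Grm8, Grm3 and Grik1 held without any single library and within the libraries of the shared flow cell. Grik3 was not tested without line 6 replicate 3, line 17 replicate 4, or WSC replicate 2 or 4, and was called without each of the others. The calls for Gria1 and Gria2 did not hold throughout. Without line 17 replicate 4 their FDR was 0.0885 and 0.0473, and without line 6 replicate 3 it was 0.0399 and 0.0547. Gria1 was also not called without line 6 replicate 4 (0.0369) or WSC replicate 1 (0.0115), 3 (0.0446) or 4 (0.0105). Gria2 was not called without line 6 replicate 1 (0.0111), 2 (0.0237) or 4 (0.0295), line 17 replicate 3 (0.0131), or WSC replicate 1 (0.0190), 3 (0.0377) or 4 (0.0180). The count of 7 came to 4 without line 6 replicate 3, without line 17 replicate 4 or without WSC replicate 4.

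With all tags, 8 tested members did not pass the FDR of 0.01. Gria2 was at 0.26 (FDR = 0.0240) and Grik5 at -0.49 (FDR = 0.0216). Gria1 (0.03), Grik1 (0.09), Grin1 (-0.21), Grm3 (-0.27) and Grm8 (-0.21) had an FDR above 0.1, as did Grin3a, whose CPM was 390.1 to 449 in WSC and 268 to 646 in Chat:GFP-Nova. With exonic tags alone 11 members were tested, of which Grin2d had more and Grm5 and Slc17a6 had fewer, where 24.2% and 23.7% of 2256 genes did so. Besides Slc17a7 and Slc17a8, the genes with too few tags were Grin3b with 38, Grin2c with 15 and Grm6 with 0.

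Between the 2 Chat:GFP-Nova lines, none of the 22 members differed at an FDR of 0.01 (edgeR). Of all 4467 genes tested, 0.0% differed. By the same test, 4 members had an unadjusted p of at most 0.05. The log2 difference from WSC was -4.16 in line 6 and -3.15 in line 17 for Slc17a6, -1.90 and -1.04 for Grik3, and 0.93 and 0.93 for Grid1. Compared with WSC on its own, line 6 had 8 members with more and 4 with fewer tags, and line 17 had 6 and 4. With line 17 alone Gria3 (FDR = 0.0106), Gria4 (0.0140), Grm5 and Grin2d were not called, and with line 6 alone Grm4 and Grin2d.

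Of 24 related genes (auxiliary receptor subunits, glial glutamate uptake and the glutamine cycle), 15 were tested for CLIP tags, of which 2 had more in Chat:GFP-Nova and 7 had fewer, beside 28.1% and 28.9% of all genes. The kainate receptor auxiliary subunits went in opposite directions, with Neto1 at 0.46 (FDR = 0.000762) and Neto2 at -2.20 (FDR = 1.79e-10). Of the AMPA receptor auxiliary subunits, 1 of 7 tested passed, Cacng2 (stargazin) at -0.43 (FDR = 0.00571). In the glutamine cycle 5 genes were tested, of which 1 had more tags. Glud1 (-0.80), Glul (-0.79), Slc38a1 (-1.68) and Slc38a2 (-0.76) had fewer. The glial uptake transporter Slc1a2 (GLT-1) was at -1.14 (FDR = 4.08e-08), the same direction as the 3 astrocyte markers above with all tags, whose part in it was not tested. With exonic tags alone Slc1a2 (-0.45, FDR = 0.00843), Neto2 (-1.89) and Slc38a1 (-1.06) passed, whereas Cacng2 (-0.0013, FDR = 0.994), Neto1 (0.08, FDR = 0.702), Glud1 (-0.13, FDR = 0.453), Glul (-0.44, FDR = 0.200) and Slc38a2 (-0.04, FDR = 0.811) did not. By RNA, Glul (475.8 RPKM), Slc1a2 (177 RPKM) and Glud1 (156 RPKM) were the most abundant of these genes in WSC.

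The cassette exons of the group lie in functional parts of the receptors. In Gria2 and Gria3, the mutually exclusive flop and flip exons encode a segment of the ligand-binding domain that sets how fast AMPA receptors desensitise and close. Each exon is 115 nt long, and both genes carry the flop exon first. The pairs are printed in sense orientation from mm9, with the bases that differ between flop and flip of the same gene in capitals.
Gria2 flop, chr3:80495242-80495356 (-): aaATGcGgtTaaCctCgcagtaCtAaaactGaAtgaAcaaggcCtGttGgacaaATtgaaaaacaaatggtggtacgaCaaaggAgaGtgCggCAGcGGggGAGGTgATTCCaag
Gria2 flip, chr3:80494326-80494440 (-): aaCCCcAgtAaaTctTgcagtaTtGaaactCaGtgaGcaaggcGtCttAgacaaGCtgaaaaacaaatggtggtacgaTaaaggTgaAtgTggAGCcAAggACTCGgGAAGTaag
Gria3 flop, chrX:39007987-39008101 (+): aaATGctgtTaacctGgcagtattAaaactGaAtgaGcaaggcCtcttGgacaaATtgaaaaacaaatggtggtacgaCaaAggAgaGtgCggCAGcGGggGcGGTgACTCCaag
Gria3 flip, chrX:39022678-39022792 (+): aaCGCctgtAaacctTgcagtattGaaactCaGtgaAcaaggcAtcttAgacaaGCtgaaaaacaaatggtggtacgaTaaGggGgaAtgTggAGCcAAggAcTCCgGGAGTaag

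Flop and flip differed at 36 of 115 bases in Gria2 and at 32 in Gria3, and none of the 4 exons held a NOVA tetramer, of which at least 1 was held by 77.2% of the 79 cassette exons of this length. A read that skips flop from the upstream side joins flip, so the flip share was read from the junctions at each end of the pair. At the 5′ end of Gria2, 107 flop and 94 flip reads in the male library gave a flip share of 46.8%, and 105 and 67 reads in the female library gave 39.0%, or 42.9% ± 5.5 (SD, n = 2). At the 3′ end, 44 flop and 27 flip reads gave 38.0% in the male library, and 22 and 39 gave 63.9% in the female one, or 51.0% ± 18.3. The 95% Wilson intervals, which cover counting error only, overlapped at the 5′ end (40.0 to 53.7 and 32.0 to 46.4%) but not at the 3′ end (27.6 to 49.7 and 51.4 to 74.8%). Both exons of Gria2 were thus in use in both libraries.

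In Gria3 flip reads outnumbered flop reads at both ends in both libraries. The flip share was 55.6% in the male and 58.5% in the female library at the 5′ end, and 57.5% and 74.1% at the 3′ end, or 57.1% ± 2.0 and 65.8% ± 11.8 (SD, n = 2). Reads that joined both exons of a pair into 1 transcript were few, 3 and 6 in Gria2 and 2 and 0 in Gria3.

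**Figure D5:**
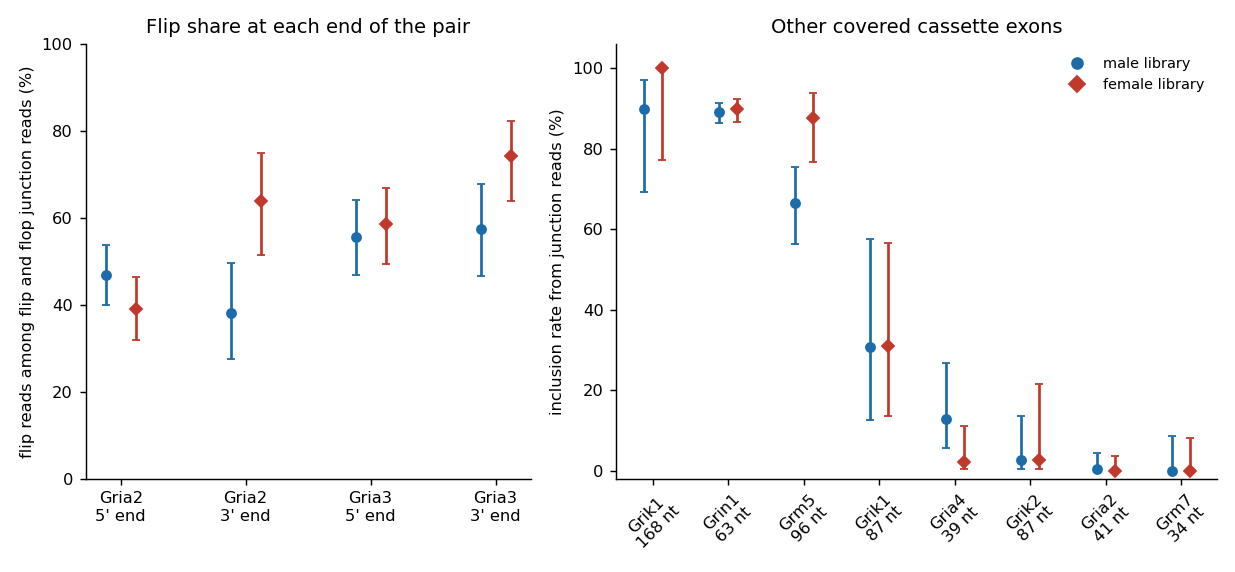
Left, share of flip reads among flip and flop junction reads at each end of the exon pair in Gria2 and Gria3; right, inclusion rate of the other 8 covered cassette exons. Circles show the male and diamonds the female WSC library with 95% Wilson intervals, which were apart for the 3′ end of Gria2 and for the 96-nt exon of Grm5.

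Of the 16 cassette exons, 12 had at least 10 junction reads in each library, as did 71.2% of all cassette exons. For each, the inclusion rate was taken as the mean read number of the pair of inclusion junctions, divided by its sum with the reads that skip the exon. For Gria2 and Gria3 flop and flip this formula mixes both ends and is not used. Outside them, 3 exons had a mean rate between 10% and 90%, those of Grin1 and Grm5 and 1 of Grik1, as did 27.4% of all covered exons. The first 2 are printed in sense orientation, with any NOVA tetramer in capitals.
Grin1 63-nt exon, chr2:25166863-25166925 (-): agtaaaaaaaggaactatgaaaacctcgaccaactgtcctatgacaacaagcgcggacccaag
Grm5 96-nt exon, chr7:95264703-95264798 (+): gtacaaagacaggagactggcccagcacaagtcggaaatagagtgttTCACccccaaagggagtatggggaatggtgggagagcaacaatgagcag

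The Grin1 exon encodes the N1 cassette in the extracellular amino-terminal domain, known to change the response of NMDA receptors to protons and polyamines. It had the most reads of the group, with 569 and 499 reads on its inclusion junctions and 66 that skipped it in the male library, and 432, 351 and 44 in the female one. The rates were 89.0% and 89.9%, or 89.4% ± 0.63 (SD, n = 2). The Grm5 exon encodes the insert in the carboxy-terminal tail that distinguishes mGlu5b from mGlu5a. It had 57 and 62 inclusion and 30 skipping reads in the male library (66.5%, 95% interval 56.2 to 75.4%), and 51, 49 and 7 in the female one (87.7%, 76.8 to 93.9%). Its counts differed between the 2 libraries (Fisher's exact test, p = 0.00211, FDR = 0.0639), as did those of 4.26% of the 9396 exons tested at an FDR of 0.1. This test compares 2 libraries of reads, not males with females. The Grik1 87-nt exon had rates of 30.8% and 31.0% from 17 and 19 junction reads, and its 95% intervals spanned 12.7 to 57.6% and 13.5 to 56.5%.

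The other covered exons were near full inclusion or full skipping. The Grik1 168-nt exon was included at 89.7% in the male library, and no read of the female one skipped it. The Grik2 87-nt exon was included at 2.63% and 2.70%, the Gria4 39-nt exon at 12.8% and 2.13% and the Gria2 41-nt exon at 0.47% and 0%. The annotation lists neither of the last 2 exons. The Grm7 34-nt exon had 0 inclusion reads against 41 and 43 skipping reads, whose intervals reached 8.57% and 8.20%. The 4 exons with too few reads were the 45-nt exon of Grik1, 2 overlapping exons of Grin2b and 1 of Slc17a7.

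NOVA tags around these exons were few. In windows of each exon with 200 nt on either side, the 14 exons whose position was known had 2 to 68 tags in the 4 WSC libraries together and 0 to 34 in the 8 Chat:GFP-Nova libraries, and none had enough to enter the test. Of the 21 windows of other genes that did, 9.52% had more tags and 61.9% fewer in Chat:GFP-Nova. The Grm5 exon window had 14, 20, 23 and 11 tags in WSC, and in Chat:GFP-Nova 2 tags in 1 library, 1 in another and 0 in the other 6. The Grin1 window had 36 tags in WSC and 5 in Chat:GFP-Nova. Around Gria3 flip there were 34 tags in Chat:GFP-Nova, of which 17 and 11 came from line 6 replicate 3 and line 17 replicate 4, and 3, 5, 5 and 3 in WSC. Without the filter on low counts its log2 difference was 4.23 ± 0.42 (SE), which passed an FDR of 0.01, as did 1.44% of the 7640 windows in that direction and 0.681% in the other. Over all 12 libraries 33 tags lay on the exon itself, of which 19 ended at the same base, 2 nt before the exon's end. The next 12 bases there, chrX:39022791-39022802, were AGGTCAGTCGCT, and the 3′ linker of the libraries starts with GTGTCAGTCACT. A comparison that allowed gaps matched 10 of these 12 bases and an ungapped one 9. The authors removed tags just before frequent pentamers within 1 mismatch of GTGTC, where their primer could start reverse transcription. The part of this likeness to the linker in the remaining tags was not tested.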

How the data were processed

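The authors deposited CLIP tags as mapped unique reads on mm9 (Novoalign, per the labels, which list mm10 as well for 1 library whose tags fell on mm9 genes like the others). For RNA-seq, the deposited tables hold whole-number read counts and RPKM per gene, and exon body and junction counts per cassette exon, from OLego and Quantas. The authors also deposited a score per tag in the tag files, which was not used. Tags were counted on GENCODE vM1 genes by midpoint and strand, omitting tags in more than 1 gene. edgeR 4.0.16 (TMM, filterByExpr, quasi-likelihood test, Benjamini-Hochberg FDR of 0.01) compared 8 Chat:GFP-Nova with 4 WSC libraries over all genes. DESeq2 1.42.0 was an alternative. Exon counts were compared by Fisher's exact test, two-sided, FDR of 0.1. Both tests were checked on simulated data. The pseudocount was 0.1 RPKM. Intervals are 95% Wilson intervals and cover counting error only. The text names every member with RPKM, members past the CLIP threshold or with the most tags, and covered exons with intermediate inclusion. Members and lists were chosen with earlier results of these data known. CLIP replicates are biological replicates per the labels. The RNA-seq libraries come from 1 mouse of each sex. Some genes of the related and marker lists are counted but not reported here by name.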

Additional observations from a re-analysis of the deposited data

Results flagged for a closer look

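In 3 of 66 groups of 4 libraries, 1 library stood apart from the other 3 on the tags of a member, about as many as the 1 in 20 that chance gives. On Grin2a, line 6 replicate 2 of Chat:GFP-Nova had a CPM of 1047, and the other 3 libraries of that line 787 to 815. On Grin3a, WSC replicate 1 had a CPM of 390.1 against 446 to 449. On Grik4, WSC replicate 2 had 177 against 157 to 160. Leaving out any of these libraries changed no call of Grin2a or Grik4, and Grin3a was called in none of these fits.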

How the results depend on the processing

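Counting exonic tags alone left 1 member with more and 2 with fewer tags, and intronic tags alone left 0 with more. With them Grm7 turned to -0.25 and Gria4 to -0.023, and Grin2b turned to -0.24 with exonic tags, none of these 3 past the threshold. Leaving out single libraries gave 8 to 9 members with more and 3 to 6 with fewer tags, and with intronic tags 0 to 1 and 4 to 9. The libraries of the shared flow cell, an alternative chosen after seeing the data, gave 1 member with more intronic tags, Gria3. Without a filter on low counts 1 exon window passed, 6 members had more and 7 fewer tags, the median log2 difference of all genes moved from -0.01 to -0.31, and genes with more tags fell from 49.2% to 31.0% of the calls. Exon tests with junction reads alone called 2 exons and an FDR of 0.05 called 0. The replicate numbers were not taken to pair the samples, since not every correlation was over 0.1: those of same-numbered libraries were 0.05 to 0.20 between the Chat:GFP-Nova lines and -0.06 to 0.04 with WSC. By the read names, however, replicates 1 of both lines shared an instrument and replicates 2 a flow cell. With the replicate number as a block, 9 members had more and 5 fewer tags, 0 and 5 with intronic tags, where Gria1 (FDR = 0.0569) and Gria2 (0.0432) were not called. The depth of the Chat:GFP-Nova libraries limits the exon windows, and with 2 RNA-seq libraries no level was tested.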
